A study of Mus musculus with 6 samples.

Results

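The vacuolar ATPase (V-ATPase) subunit genes Atp6v0e, Atp6v0e2, Atp6v0a1, Atp6v0a2, Atp6v0b, Atp6v0d1, Atp6v1a, Atp6v1d and Atp6v1h were described in CAD cells transfected with a miR-124a-2 plasmid. They are 9 of the 18195 genes that the platform annotation names alone on a probe set, and 21 of the 45101 probe sets on the array carry them. The genes were chosen by family membership with earlier results of the same comparison in view, so they were selected on the plasmid minus vector differences given here. Those differences are a description and carry no test. Whether a member passed the threshold set over all probe sets is likewise given as a description. CAD is a mouse neuroblastoma line with catecholaminergic features, and miR-124 is a microRNA abundant in neurons. Cells transfected with the RIPmiR-124a-2 plasmid, which expresses miR-124a-2, were set against cells that received the empty RI vector, with 3 biological replicates and therefore 3 arrays in each group. Both groups shared the host line, its DMEM-based medium and the RNA extraction, and the labels ascribe no difference to them beyond the plasmid. The interval after transfection, the share of cells that took up the plasmid and the miR-124 level reached are not given in the sources used here, so the model is a transfected culture of a tumour line. Each array gives RMA values, which are background-corrected, normalized probe signals on a log2 scale.

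The V-ATPase is a rotary proton pump that acidifies lysosomes, endosomes, the Golgi and secretory vesicles. Its cytosolic V1 sector hydrolyses ATP and turns a central rotor, and its membrane V0 sector carries protons across the membrane. In neurons and chromaffin-type cells the proton gradient that it builds drives the loading of transmitter into vesicles.

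The arrays were alike in overall signal and showed features that separated replicates within each group. Of these features, the spread of the signals was unevenly split between plasmid and vector arrays. Pearson correlations over all probe sets lay between 0.988 and 0.998 for pairs of arrays. The interquartile range of the log2 signals was 3.06 to 3.10 on plasmid replicates 1 and 2 and vector replicate 1 (the narrow arrays), and 3.26 to 3.35 on plasmid replicate 3 and vector replicates 2 and 3 (the wide arrays). The poly-A spike-in controls averaged 5.97 and 5.96 on the arrays of replicate 1 of the plasmid and of the vector, against 5.57 to 5.71 on the other 4 arrays. On the same 2 arrays the transferrin receptor control was 1.55 and 1.34 log2 units higher in its 3′ than in its 5′ probe set, against 0.95 to 1.09 on the others. Whether these features contribute to any difference below was not tested. The difference inside each array set is given beside some results only. Its absence elsewhere does not mean that both sets gave the same difference. Chgb, which encodes the vesicle protein chromogranin B, had a log2 signal of 12.03 to 12.38 over the 6 arrays, and the noradrenaline-synthesizing enzyme gene Dbh had 9.96 to 10.65. The brightest probe sets of the 6 fibroblast markers measured lay between 3.39 and 5.39, of 4 glial markers between 3.14 and 5.32 and of 4 immune markers between 3.54 and 5.71, and none of the 14 passed the limma test or had a probe set at an unadjusted p under 0.05, as 9.41% of all probe sets naming 1 gene did. Of 11 catecholaminergic and neuronal markers measured, none passed the adjusted threshold. In the brightest probe set 9 were above 0 and 4 did not overlap with plasmid higher, against 54.2% and 8.5% of all genes. Of their 18 probe sets, 5 had an unadjusted p under 0.05, and the median difference was 0.19, against 0.015 over all genes. The mean log2 signal of these 11 markers was 8.19, 8.17 and 8.26 in plasmid cells, against 7.98, 7.99 and 7.96 in vector cells, with no overlap. These markers move the same way as the small positive V-ATPase differences below, and their part in those was not tested. Absent bacterial control transcripts read 3.37 to 3.50. The gene Slc18a2 of the vesicular monoamine transporter, a defining marker of catecholamine storage, was only slightly above that, at 3.70 to 4.16. Ptbp1, a splicing repressor gene and known miR-124 target, fell by 1.24 ± 0.12 log2 units (SE) in its brightest probe set. The Benjamini-Hochberg adjusted p in limma was 0.0180, and between 0.00165 and 0.244 over 17 alternatives. Its difference lay between -1.35 and -0.48 over these alternatives, and 10 of them called it. The smallest fall was that of the mean of its probe sets (-0.48, limma, adjusted p = 0.0932).

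Atp6v0e was the member with the lower signal in plasmid cells. The gene encodes subunit e, a small hydrophobic protein of the V0 sector. Its single probe set had log2 signals of 8.995, 8.84 and 9.17 in plasmid cells, against 10.20, 10.08 and 10.02 in vector cells. All 3 plasmid arrays lay below all 3 vector arrays, and the group means were 9.001 ± 0.17 and 10.10 ± 0.09 (SD, n = 3 each). The difference of -1.10 ± 0.12 log2 units (SE) is a 2.15-fold lower signal. It passed an adjusted p of 0.05 over all probe sets, as did 94 probe sets in the lower direction (0.208% of those tested) and 27 in the higher direction (0.0599%). Because Atp6v0e was chosen with this difference known, the pass describes it and is not an independent test. By size, it ranked 37 among the 94, counted from the most negative. Within the narrow arrays the difference was -1.29, and within the wide arrays it was -0.88. In RNA from whole cultures, fewer cells of a type and less RNA per cell cannot be told apart.

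Atp6v0e2 encodes the paralog of subunit e, and its probe set differed the opposite way. Log2 signals were 9.68, 9.61 and 9.65 in plasmid cells, against 9.49, 9.33 and 9.34 in vector cells. The groups did not overlap, but the step between them was small, at 0.26 ± 0.09 log2 units (SE) or 1.20-fold, and it did not pass the adjusted threshold. The difference was 0.16 within the narrow arrays and 0.31 within the wide arrays. Subtracting the Atp6v0e2 signal from that of Atp6v0e on each array removes whatever shifts both together on it. That contrast was -0.69, -0.78 and -0.47 in plasmid cells, against 0.71, 0.75 and 0.68 in vector cells, a shift of -1.36 log2 units. Probe sets differ in how brightly they bind, so only the shift between groups is read from it. Measured instead against the mean of the brightest probe sets of the 8 other members, Atp6v0e stood at -0.35, -0.60 and -0.36 in plasmid cells, against 1.00, 0.80 and 0.70 in vector cells. The shift was then -1.27 log2 units. Both shifts follow from the differences of members that were chosen with those differences known, so they add no separate evidence.

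**Figure D1:**
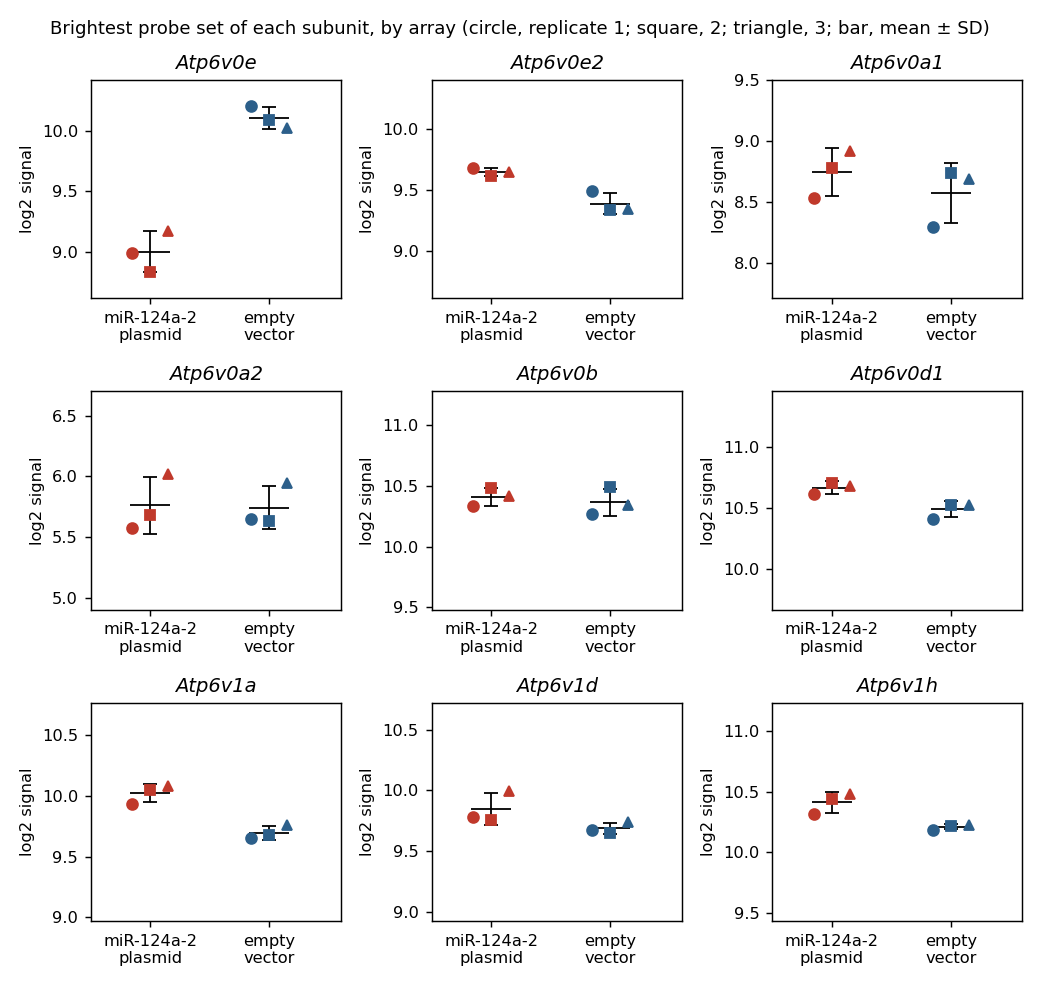
Log2 signal (vertical axis, each panel spanning the same range) of the brightest probe set of each of the 9 subunits on every array, with miR-124a-2 plasmid arrays left of empty vector arrays; symbols mark the replicate number and bars the mean ± SD (n = 3). The Atp6v0e plasmid arrays sit at 8.84 to 9.17, below the vector arrays at 10.02 to 10.20, while the other panels show steps of at most 0.33.

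The promoters of these paralogs are shown because the genes differ in direction, with those of Atp6v0d1 and Atp6v1a because they share a motif with Atp6v0e. Sequences are RefSeq promoters of the mouse build GRCm38.p6, running from 250 bases before to 50 bases after the annotated start, and 7 of the 9 genes had an entry. Capitals mark TCACGTGA, the palindromic core of the CLEAR element through which TFEB and its relatives are known to activate lysosomal genes. It contains the E-box core CACGTG, and both read the same on either strand. The whole window is given for Atp6v0e (chr17:26676146-26676445, plus strand) and Atp6v0e2 (chr6:48537319-48537618, plus strand), and 60 bases around the motif for Atp6v0d1 (chr8:105566035-105566094, minus strand) and Atp6v1a (chr16:44139358-44139417, minus strand).
Atp6v0e: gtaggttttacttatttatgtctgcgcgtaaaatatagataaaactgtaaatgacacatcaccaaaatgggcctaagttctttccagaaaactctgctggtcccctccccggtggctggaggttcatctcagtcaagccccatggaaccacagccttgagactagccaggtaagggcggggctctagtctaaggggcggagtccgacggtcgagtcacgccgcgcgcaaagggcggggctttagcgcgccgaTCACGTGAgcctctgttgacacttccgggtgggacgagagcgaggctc
Atp6v0e2: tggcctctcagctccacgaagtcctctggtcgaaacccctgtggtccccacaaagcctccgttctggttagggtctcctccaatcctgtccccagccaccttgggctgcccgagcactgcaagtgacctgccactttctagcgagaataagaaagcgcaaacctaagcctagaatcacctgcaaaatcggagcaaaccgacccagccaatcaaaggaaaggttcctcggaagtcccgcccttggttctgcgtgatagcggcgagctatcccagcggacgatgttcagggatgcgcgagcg
Atp6v0d1: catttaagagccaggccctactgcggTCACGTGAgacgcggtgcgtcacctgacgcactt
Atp6v1a: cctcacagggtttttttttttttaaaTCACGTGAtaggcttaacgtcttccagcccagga
In Atp6v0e the motif covers bases 3 to 10 after the start. In Atp6v0d1 it spans the start, from base -4 to base 4, and in Atp6v1a it lies upstream, from base -132 to base -125. TCACGTGA was in 3 of the 7 member promoters and in 320 of all 32851 promoters (0.974%), and CACGTG was in 4 of the 7, Atp6v0b being the other, and in 2349 of all (7.15%). Neither string was in the promoter windows of the 12 other V-ATPase subunit genes with an entry. A match describes letters in this window and is not a measured binding site.

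The remaining V0 genes showed small differences. Atp6v0d1 encodes the subunit that couples the rotor of V1 to the membrane ring. Its probe set read 10.61, 10.71 and 10.68 in plasmid cells, against 10.41, 10.53 and 10.53 in vector cells, with no overlap. The difference was 0.18 ± 0.09 log2 units (SE), and it was 0.25 on the narrow and 0.16 on the wide arrays. Atp6v0b encodes a proteolipid of the rotating ring. Its brightest probe set overlapped between groups, at 10.33, 10.48 and 10.42 in plasmid cells, against 10.27, 10.49 and 10.34 in vector cells, a difference of 0.04 ± 0.10 (SE). The 2 other Atp6v0b probe sets, both of a type whose probes may also bind other transcripts, differed by 0.11 (no overlap) and -0.07 (overlap).

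The a subunits hold the path along which protons cross the membrane and direct the pump to particular organelles. Atp6v0a1, the isoform known from synaptic vesicles and neurons, is measured by 4 probe sets. The brightest had log2 signals of 8.53, 8.78 and 8.92 in plasmid cells, against 8.29, 8.74 and 8.69 in vector cells. These ranges overlapped, with a difference of 0.17 ± 0.15 (SE). The other 3 probe sets differed by 0.11, -0.07 and -0.27, all with overlap. A pair of them followed the replicate number and not the plasmid: the first read 6.69 on plasmid replicate 1 and 6.51 on vector replicate 1, against 7.75 to 7.87 on the other arrays. The second read 6.58 and 6.89 on the same arrays of plasmid and vector, against 7.65 to 7.74. These are the arrays with the high poly-A and transferrin receptor 3′ values. Atp6v0a2, the isoform known from the Golgi and endosomes, was dim. Its 3 probe sets lay between 4.14 and 6.02 over all arrays and differed by 0.02, -0.11 and -0.20, with overlap in each.

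In the V1 sector, the gene with the most positive difference was Atp6v1a. It encodes subunit A, which carries the catalytic ATP-binding site. Log2 signals in its brightest probe set were 9.94, 10.05 and 10.08 in plasmid cells, against 9.65, 9.67 and 9.76 in vector cells. Every plasmid array was above every vector array, and the means were 10.02 ± 0.08 and 9.70 ± 0.06 (SD, n = 3 each). The difference of 0.33 ± 0.09 log2 units (SE), or 1.25-fold, was 0.34 on the narrow and 0.36 on the wide arrays and did not pass the adjusted threshold. A dimmer Atp6v1a probe set differed by 0.27 ± 0.23 (SE) and overlapped. It too was low on the replicate 1 arrays, at 8.75 in plasmid and 8.52 in vector cells, against 9.44 and 9.41 on the other plasmid arrays and 9.11 and 9.15 on the other vector arrays.

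Atp6v1h encodes subunit H, which regulates the pump and keeps V1 from hydrolysing ATP once it has come off the membrane. Its bright probe set had 10.32, 10.44 and 10.48 in plasmid cells, against 10.19, 10.22 and 10.22 in vector cells. The groups did not overlap, and the difference was 0.20 ± 0.09 log2 units (SE), or 0.19 on narrow and 0.26 on wide arrays alone. The 2 other Atp6v1h probe sets stayed near the absent controls, between 2.72 and 3.92, and carry little information on the gene. Atp6v1d encodes subunit D, part of the central rotor stalk. Its 3 probe sets differed by 0.16, 0.13 and 0.17 log2 units. The brightest did not overlap, at 9.78, 9.75 and 9.99 in plasmid cells, against 9.68, 9.65 and 9.74 in vector cells. Its difference was 0.09 on the narrow and 0.30 on the wide arrays. The dimmer Atp6v1d probe sets differed by -0.0050 and -0.02 on the narrow arrays, against 0.24 and 0.37 on the wide arrays.

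**Figure D2:**
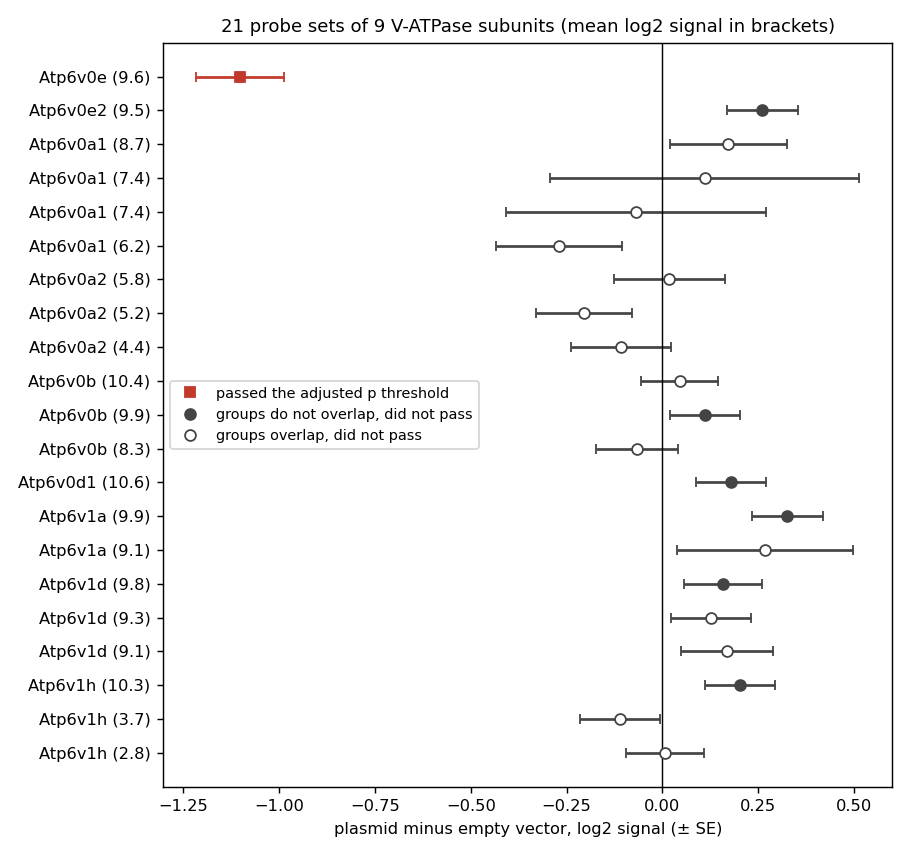
Plasmid minus empty vector difference in log2 signal (horizontal axis, points with SE bars) for each of the 21 probe sets of the 9 subunits. The Atp6v0e point lies at -1.10 and all others lie between -0.27 and 0.33.

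Over all 21 probe sets, 14 had a difference above 0 and 7 below, and the median was 0.11 log2 units, against 0.0023 over all probe sets of the array. Groups did not overlap in 6 member probe sets with plasmid higher and in 1 with plasmid lower, where 6.27% and 6.96% of all probe sets on the array did so in these directions. With the brightest probe set of each gene, 8 of the 9 genes were above 0 and 5 did not overlap with plasmid higher, against 8.5% of all genes. The 8 genes other than Atp6v0e had differences of 0.02 to 0.33 and a median of 0.18. Because the members were chosen with these differences known, nothing is read from these counts.

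**Figure D3:**
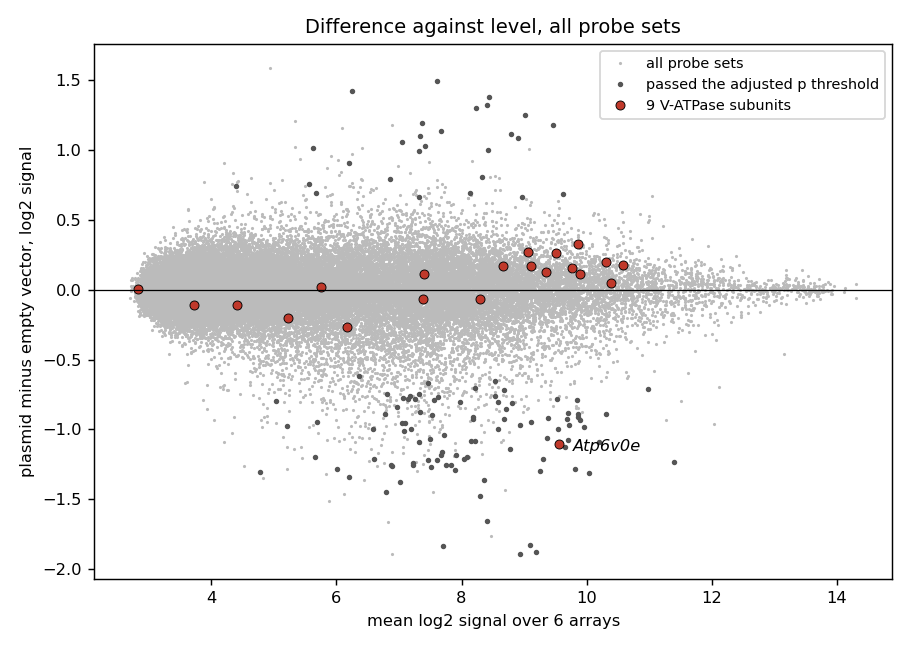
Plasmid minus empty vector difference (vertical axis, log2) against the mean log2 signal over 6 arrays (horizontal axis) for all 45101 probe sets, with the 21 member probe sets in red and those past the adjusted p threshold in dark grey. Only Atp6v0e among the members lies far from 0, and the bright members gather just above 0.

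Across the array sets, the Atp6v0e difference kept its sign, and so did those of the brightest probe sets of Atp6v0e2, Atp6v0a1, Atp6v0b, Atp6v0d1, Atp6v1a, Atp6v1d and Atp6v1h. For Atp6v0a2 the brightest probe set gave -0.02 on the narrow and 0.23 on the wide arrays. The only vector array among the narrow arrays was replicate 1, which also had high poly-A values. The only plasmid array among the wide arrays was replicate 3, so a kept sign rests on few arrays. The Atp6v0e difference lay between -1.19 and -1.02 log2 units over 17 alternative fits. Its call was more fragile than its size: it was lost without plasmid replicate 1 or 2, without any one of the 3 vector replicates, and with replicates 2 and 3 only. Atp6v0e also did not pass an adjusted p of 0.01 in the main limma fit. No other member probe set passed in any of these fits.

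**Figure D4:**
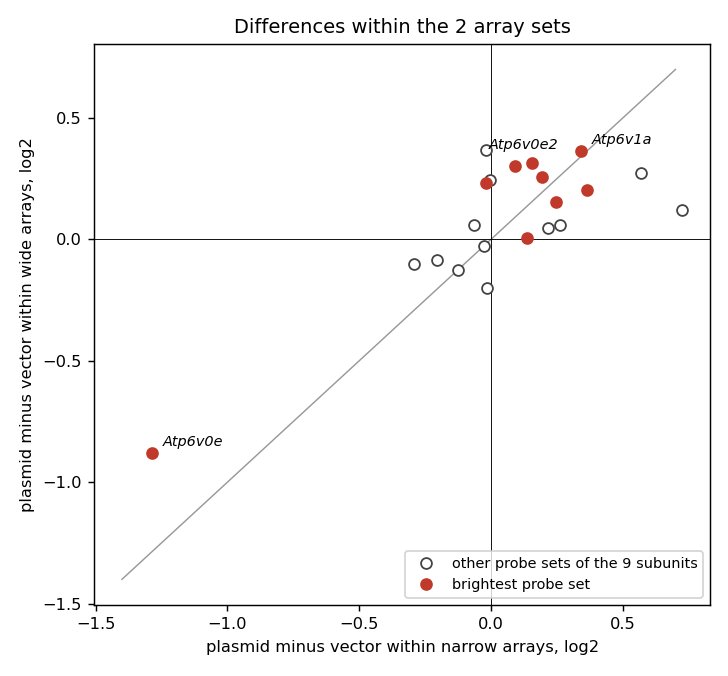
Plasmid minus vector difference within the wide arrays (vertical axis, log2) against that within the narrow arrays (horizontal axis, log2), with 1 point for each member probe set and the diagonal marking equality. Atp6v0e lies at -1.29 within narrow and -0.88 within wide arrays, and Atp6v1a at 0.34 and 0.36.

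The rest of the pump did not pass the test. Of 17 other V-ATPase subunit genes listed, 15 were measured by 29 probe sets, and Atp6v0c and Atp6v1g3 were not analysed here. None of the 29 passed the adjusted threshold in limma and 1 had an unadjusted p under 0.05, while over all genes 0.121% had a probe set called higher and 0.385% one called lower. By brightest probe set, 10 of the 15 genes were above 0 and 4 did not overlap with plasmid higher, against 54.2% and 8.5% of all genes. The median difference was 0.04 log2 units, against 0.015 over all genes. The 15 include 7 genes below a mean log2 signal of 8. Among these, Atp6v0a4 at 3.42 and Atp6v0d2 at 3.67 were near the absent controls. At a mean log2 signal of 8 or more, a level set after the values were seen, 7 of 8 genes were above 0 and 4 did not overlap with plasmid higher, with a median of 0.14 and a range of -0.04 to 0.25. Of the 4199 array genes at that level, 50.8% were above 0 and 13.3% did not overlap with plasmid higher, and their median was 0.0034. Atp6v1b2, whose product is the B subunit beside A in the ATPase head, had 10.80, 10.71 and 10.73 in plasmid cells, against 10.67, 10.43 and 10.44 in vector cells. No vector array reached the lowest plasmid array, and the difference was 0.23 (limma, adjusted p = 0.619). It was 0.09 on the narrow and 0.29 on the wide arrays. Atp6v1e1, a peripheral stalk subunit gene, differed by 0.25 (adjusted p = 0.684), or 0.10 on narrow and 0.26 on wide arrays alone. The accessory subunit genes Atp6ap1 and Atp6ap2 differed by 0.15 and 0.13 (adjusted p = 0.793 and 0.872). For Atp6ap2 the difference was -0.03 on the narrow and 0.19 on the wide arrays. Atp6v0e, chosen with its difference known, was the single gene called in the V0 list of 12 measured genes, where the median was 0.04. None of the 12 measured V1 genes was called, with a median of 0.15. Given the small shares called over all genes, nothing is read from the lack of other calls in lists of this size.

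Genes that assemble, sense or use the pump were also compared as lists, in each of which no gene passed the adjusted threshold. Over all genes, 54.2% had a brightest probe set above 0, and 9.41% of probe sets had an unadjusted p under 0.05. Of 12 genes for V-ATPase assembly and the RAVE complex, which joins V1 to V0, 10 were above 0, with a median of 0.16 and 2 of 20 probe sets at an unadjusted p under 0.05. Wdr7, which encodes a subunit of rabconnectin, the mammalian counterpart of RAVE, had a difference of 0.35 (limma, adjusted p = 0.356). On the narrow and wide arrays alone it was 0.19 and 0.51. Ncoa7, whose product binds the pump, had 0.32 (adjusted p = 0.471), or 0.13 on narrow and 0.54 on wide arrays alone. A dim Ncoa7 probe set, at a mean log2 signal of 3.38, differed by -0.17. Of 13 genes for the Ragulator, the Rag GTPases and the TFE factors, which couple the lysosome to mTORC1 and to the CLEAR motif, 10 were above 0, with a median of 0.11 and 1 of 28 probe sets at an unadjusted p under 0.05. The Rag GTPase gene Rragd had a difference of -0.41 (adjusted p = 0.563), which was -0.75 on the narrow and -0.08 on the wide arrays. Mitf differed by -0.19 (adjusted p = 0.902), and its fellow TFE factor genes Tfeb and Tfe3 differed by -0.11 and 0.14.

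Of 22 genes for lysosomal membrane proteins and hydrolases, 18 were above 0, with a median of 0.11, and 11 of 48 probe sets had an unadjusted p under 0.05, beside 54.2% and 9.41% over the array. Clcn6, which encodes a chloride-proton exchanger of late endosomes, read 8.35, 8.64 and 8.88 in plasmid cells, against 7.28, 7.89 and 7.95 in vector cells. All plasmid arrays were above all vector arrays, and the difference was 0.92 (limma, adjusted p = 0.152). Of 17 alternative fits, 3 called Clcn6, each with a block, and 14 did not, with adjusted p up to 0.482. The lowest adjusted p, 0.00863 at a difference of 1.09, came from blocking on array set. The array sets were split on the signals of these same arrays, and that fit called 509 probe sets over the whole table, against 121 without the block. The sialidase gene Neu1 differed by 0.49 (adjusted p = 0.431), or 0.90 on narrow and 0.27 on wide arrays alone, and by 0.28 without vector replicate 1. The mean of its probe sets differed by 0.22. Of 11 genes for proton-driven vesicular transporters and their partners, 5 were above 0, with a median of -0.0030 and 3 of 19 probe sets at an unadjusted p under 0.05. The synaptic vesicle protein gene Sv2c differed by 0.45 (adjusted p = 0.148) and the vesicular acetylcholine transporter gene Slc18a3 by 0.36 (adjusted p = 0.335). Of 16 genes for the mitochondrial F-type ATP synthase, a rotary relative of the V-ATPase, 14 were above 0, with a median of 0.07 and 2 of 32 probe sets at an unadjusted p under 0.05. Its inhibitor gene Atpif1 differed by 0.30 (adjusted p = 0.453), and Atp5c1, for its rotor stalk, by 0.21 (adjusted p = 0.709).

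**Figure D5:**
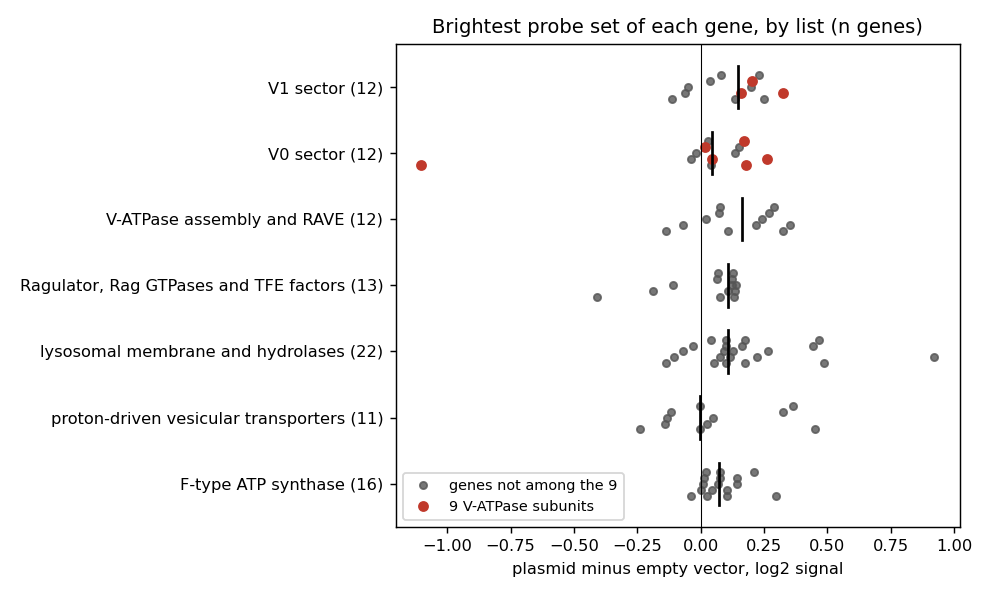
Plasmid minus empty vector difference in log2 signal (horizontal axis) of the brightest probe set of each gene, by gene list (rows), with each point 1 gene and the list median marked. Atp6v0e at -1.10 stands apart from the rest of its V0 list, and the list medians run from -0.0030 to 0.16.

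Genes whose array pattern was most like that of each paralog were found by the root mean square (RMS) of the differences between centred log2 signals over the 6 arrays. For Atp6v0e the nearest were Serp1, an endoplasmic reticulum stress gene (RMS 0.0254), Gga2, a Golgi clathrin adaptor gene (0.0793), Cmtm6 (0.0857), Pttg1ip (0.0888) and Xrcc6, the Ku70 gene (0.0909). Their plasmid minus vector differences ran from -1.21 to -0.95. Only 9 probe sets came within an RMS of 0.1 of Atp6v0e. For Atp6v0e2 the nearest were Ppm1k, Cxcr4, Scml4, Scx and Mroh1, at 0.0221 to 0.0305, with differences of 0.22 to 0.28, and 1628 probe sets came within 0.1.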

How the data were processed

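Total RNA from 3 cultures with the RIPmiR-124a-2 plasmid and 3 with the empty RI vector was hybridised to Affymetrix arrays. The deposited log2 signals, which the submitters' processing notes say the authors computed with RMA, were used as they stood. Chip definition and RMA version are not given in the sources used here, and no detection calls were used, so precision is limited by the 6 arrays. Of 45101 probe sets, 34958 had 1 gene in the platform annotation, 932 several and 9211 none listed. Differences were fitted with limma 3.58.1 in R 4.3.3 (lmFit, eBayes, no covariates) over all probe sets, with Benjamini-Hochberg adjustment and a threshold of 0.05. The fit was tested on simulated data with independent noise. Those data lacked the array set, poly-A and replicate features seen here, so that test cannot speak to them. "Brightest" is the probe set with the highest mean over all arrays. The members and gene lists were chosen with earlier results of these data known. All members are named; of each list, the genes called or else the 2 with the biggest absolute differences; 5 genes most like each e paralog; and Ptbp1. Alternatives changed normalization, variance model, filter, threshold, summarization, blocks and arrays.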

Additional observations from a re-analysis of the deposited data

How the results depend on the processing

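Atp6v0e was below vector in all 17 alternative fits, and it was called in 11 of them at an adjusted p of 0.05. Called probe sets over the whole table numbered 121, and 39 with median centring, 262 with quantile normalization, 215 with an intensity trend, 229 with a robust trend and 61 at 2-fold or more. The count was 509 with the array set as a block and 339 when blocking on the poly-A controls. Under these blocks 2 and 3 lysosomal genes were called. At an adjusted p of 0.01, limma called 0 probe sets and 0 members. Leaving out each array in turn gave 0 to 352 calls, and 0 to 1 among members. The count over the table was 0 without plasmid replicate 1 and without each vector array, where 2309 to 4247 probe sets had an unadjusted p under 0.05. It was 12 without plasmid replicate 2 and 352 without plasmid replicate 3. With replicates 2 and 3 only, chosen after seeing the data, 0 probe sets and 0 members were called, and 3732 had an unadjusted p under 0.05. A replicate block gave 673 calls, 1 member (Atp6v0e) and 3 lysosomal genes. Same-numbered arrays deviated together for replicates 1 and 3 (correlations 0.581 and 0.556) but not for replicate 2 (0.0263), where plasmid replicate 2 was nearest to vector replicate 1 (0.0899), so the numbers were not taken as pairs. Mitf ran from -0.33 to 0.0062 when each array was left out, and its sign reversed without plasmid replicate 1. The causes were not tested. The arrays carry no absolute levels, and 2 of the 3 Atp6v1h probe sets are near the absent controls.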

Other observations

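Chloride movement accompanies proton pumping into endosomes and lysosomes, and its genes named here were picked out after their values were seen. None passed the adjusted threshold in limma over all arrays, and they did not all differ the same way. Ostm1, which encodes the partner of the lysosomal exchanger ClC-7, had log2 signals of 9.25, 9.31 and 9.31 in plasmid cells, against 8.90, 8.78 and 8.79 in vector cells, a difference of 0.47 (adjusted p = 0.108). Clcn3, an endosomal chloride-proton exchanger gene, has 5 probe sets, of which the brightest read 8.91, 9.07 and 9.28 in plasmid cells, against 8.52, 8.64 and 8.76 in vector cells (difference 0.44, adjusted p = 0.273). Its other 4 differed by 0.51, 0.20, 0.50 and -0.14. The gene of ClC-7 itself, Clcn7, differed by -0.07 in its brightest probe set and by 0.19 and 0.01 in the others, all with overlap. With the replicate number as a block in limma, Clcn6 (0.92, adjusted p = 0.0151), Lamp2 (-0.69, adjusted p = 0.0274) and Clcn3 were called. The Clcn3 calls were in dimmer probe sets (0.51 and 0.50, adjusted p = 0.0440 and 0.0443), not in its brightest. That fit called 673 probe sets over the whole table, against 121 without the block, and the replicate numbers were not taken as pairs. Lamp2, a lysosomal membrane glycoprotein gene, was called in 1 of its 4 probe sets, and its brightest differed by -0.14 without the block.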
